A study of Rattus norvegicus with 9 samples.

Results

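The genes described here are 10 chemokines of pancreatic stellate cells: Ccl2, Ccl7, Ccl5, Ccl20, Cxcl1, Cxcl2, Cxcl10, Cxcl12, Cxcl16 and Cx3cl1. They were chosen by name as chemokines that stellate cells can make, and all 10 had an entry among the 14506 genes measured. The cells were purified from male Sprague Dawley rats on a Nycodenz density gradient and cultured for 72 hours in medium with serum on 1 of 3 surfaces. The Plastic group (4 arrays) grew on plastic, the Collagen group (3 arrays) on collagen I, the fibrillar collagen of scar tissue, and the Matrigel group (2 arrays) on Matrigel, a basement membrane extract. Collagen I and Matrigel are called coatings here, since the labels do not give their thickness or form. Strain, sex, medium and culture time were the same in all groups, and nothing in the labels tells if 2 arrays of a group are 2 animals. A letter in each sample title recurs across surfaces, A, P, S and Z on plastic, A, P and Z on collagen, and A and S on Matrigel; its meaning is not stated. Values are log2 expression from Affymetrix rat whole-transcript arrays, on which a step of 1 is a doubling.

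Chemokines are small secreted proteins that direct the movement of leukocytes by binding receptors on their surface, and they are grouped by the spacing of their first cysteines into CC, CXC and CX3C families. Many are inflammatory and are switched on through NF-kappaB, whereas Cxcl12 is made constitutively by stromal cells and retains cells that carry Cxcr4. Stellate cells resemble fibroblasts, and once activated they lay down pancreatic scar matrix and secrete chemokines.

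The labelled cell type was checked first. The stellate and fibroblast genes Vim, Col1a1, Col1a2 and Dcn were bright on every array, at 12.09 to 12.98 across Vim, Col1a1, Col1a2 and Dcn, and 12 of 15 stellate markers had a mean above the dim level of log2 4.25, the 40th percentile of all gene means. Gfap, which marks quiescent stellate cells, was dim on every array, at 2.45 to 2.90. Lrat, the retinol-storing enzyme of the same quiescent state, spanned 3.66 to 5.85 on Plastic, 2.25 to 3.53 on Collagen and 3.21 to 4.68 on Matrigel. On Matrigel 4 of the 15 stellate markers fell and none rose (median -0.36), and on Collagen 1 fell. Among all genes 5.85% were called lower on Matrigel and 3.17% on Collagen. Thy1, a fibroblast surface protein, averaged 8.20 on Matrigel, 10.01 on Collagen and 10.24 on Plastic (-2.04 on Matrigel against Plastic, adjusted p = 0.000935). Des, the muscle-type filament of stellate cells, averaged 4.84 on Matrigel and 6.77 on Plastic (-1.93 on Matrigel and -0.77 on Collagen against Plastic, adjusted p = 0.000208 and 0.00580). The collagen-binding proteoglycan Lum averaged 7.64, 9.47 and 10.07, and Col3a1, a fibrillar collagen, 10.75, 11.36 and 11.68 (adjusted p = 0.0173 and 0.0238 on Matrigel against Plastic). The Lum call was lost without Matrigel replicate 1 or Plastic replicate 1 (0.135 and 0.0508), and that of Col3a1 without Matrigel replicate 1 (0.174) or Plastic replicate 2, 3 or 4 (0.0506 to 0.0587). With the mean of the macrophage markers as a covariate neither passed (0.0533 and 0.109). The part of these shifts in the chemokine results was not tested. Markers of other pancreatic cells were present too. Of 23 macrophage markers 20 had a mean above the dim level, while 12 of 13 lymphocyte and 7 of 11 endothelial markers were dim. Of 14 islet markers 8 had a mean above that level. The insulin gene Ins1 read 8.92 to 10.74 on Plastic, 10.19 to 11.20 on Collagen and 11.34 and 12.17 on Matrigel. In such mixed RNA a change in the number of cells of a type and a change of RNA per cell cannot be told apart.

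Upstream sequences of 4 of these genes are shown. Cxcl1, Cxcl2 and Cxcl16 rose on both coatings, and Cxcl10, an interferon-induced chemokine, had lower means on both without passing the threshold. Each is the 250 bases before the RefSeq transcription start (build GRCr8), 5′ to 3′ on the gene's strand, with motif matches in capitals. The table of RefSeq promoters used here matched 8 of the 10 genes; those of Ccl2 and Ccl5 are not shown.
Cxcl1, chr14:17479322-17479571, minus strand: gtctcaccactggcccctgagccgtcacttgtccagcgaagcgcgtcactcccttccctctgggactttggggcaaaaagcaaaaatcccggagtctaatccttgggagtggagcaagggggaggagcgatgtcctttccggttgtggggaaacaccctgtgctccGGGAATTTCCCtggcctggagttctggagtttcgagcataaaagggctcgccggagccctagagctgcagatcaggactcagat
Cxcl2, chr14:17467256-17467505, minus strand: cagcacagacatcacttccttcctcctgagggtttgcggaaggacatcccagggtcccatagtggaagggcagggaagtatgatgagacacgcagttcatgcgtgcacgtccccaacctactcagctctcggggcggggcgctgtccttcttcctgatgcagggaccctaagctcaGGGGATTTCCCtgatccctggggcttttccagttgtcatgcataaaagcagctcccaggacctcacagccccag
Cxcl16, chr10:55669951-55670200, minus strand: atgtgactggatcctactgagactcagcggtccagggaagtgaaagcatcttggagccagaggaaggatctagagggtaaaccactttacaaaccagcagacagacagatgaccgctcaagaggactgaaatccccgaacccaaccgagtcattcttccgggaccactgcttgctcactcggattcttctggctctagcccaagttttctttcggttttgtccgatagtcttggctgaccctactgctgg
Cxcl10, chr14:15988816-15989065, plus strand: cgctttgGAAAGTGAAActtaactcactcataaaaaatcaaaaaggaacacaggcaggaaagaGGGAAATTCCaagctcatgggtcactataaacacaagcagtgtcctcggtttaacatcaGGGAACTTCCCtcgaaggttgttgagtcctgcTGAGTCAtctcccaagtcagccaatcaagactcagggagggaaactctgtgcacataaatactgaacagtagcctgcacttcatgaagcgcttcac
Searched on both strands were the 10-letter NF-kappaB consensus, the interferon response pair (GAAA, any 2 bases, GAAA) and the AP-1 site TGANTCA. Cxcl1 held GGGAATTTCC at -84 and the overlapping GGAATTTCCC at -83, and Cxcl2 held GGGGATTTCC at -74 and the overlapping GGGATTTCCC at -73, counted from the start. Cxcl10 held GGGAAATTCC at -187, the overlapping pair GGGAACTTCC and GGAACTTCCC at -128 and -127, the interferon response pair GAAAGTGAAA at -243 and TGAGTCA at -96. Cxcl16, Cxcl12 and Cx3cl1 held no match to these letters in this window, Ccl7 and Ccl20 held 1 NF-kappaB match each, and Ccl7 also 1 AP-1 match. Among 33469 RefSeq promoter entries of the same length, 6.33% held an NF-kappaB match, 3.41% the interferon response pair and 6.34% the AP-1 site. These motifs were chosen with the sequences in view, and a match describes letters only.

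Against plastic, 3 of the 10 chemokine genes rose on Matrigel (Cxcl1, Cxcl2 and Cxcl16) and 4 rose on collagen I (the same genes by name and Ccl2), and none fell. In the fit across all 14506 genes 10.4% were called on Matrigel and 6.12% on Collagen; 4.52% were called higher on Matrigel and 5.85% lower, and 2.95% were called higher on Collagen and 3.17% lower. A call is a limma adjusted p under 0.05, two-sided, adjusted over all genes. At an unadjusted p under 0.05 there were 6 of the 10 in each comparison, against 24.1% of all genes on Matrigel and 19.0% on Collagen. The median difference over the 10 genes was 0.09 on Matrigel and 0.17 on Collagen, beside -0.01 and 0.00 over all genes. The groups did not overlap for 7 of the 10 genes between Matrigel and Plastic and for 5 between Collagen and Plastic, against 30.2% and 17.2% of all genes. The genes were picked with earlier results of these data known, and both comparisons share the plastic arrays.

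**Figure D1:**
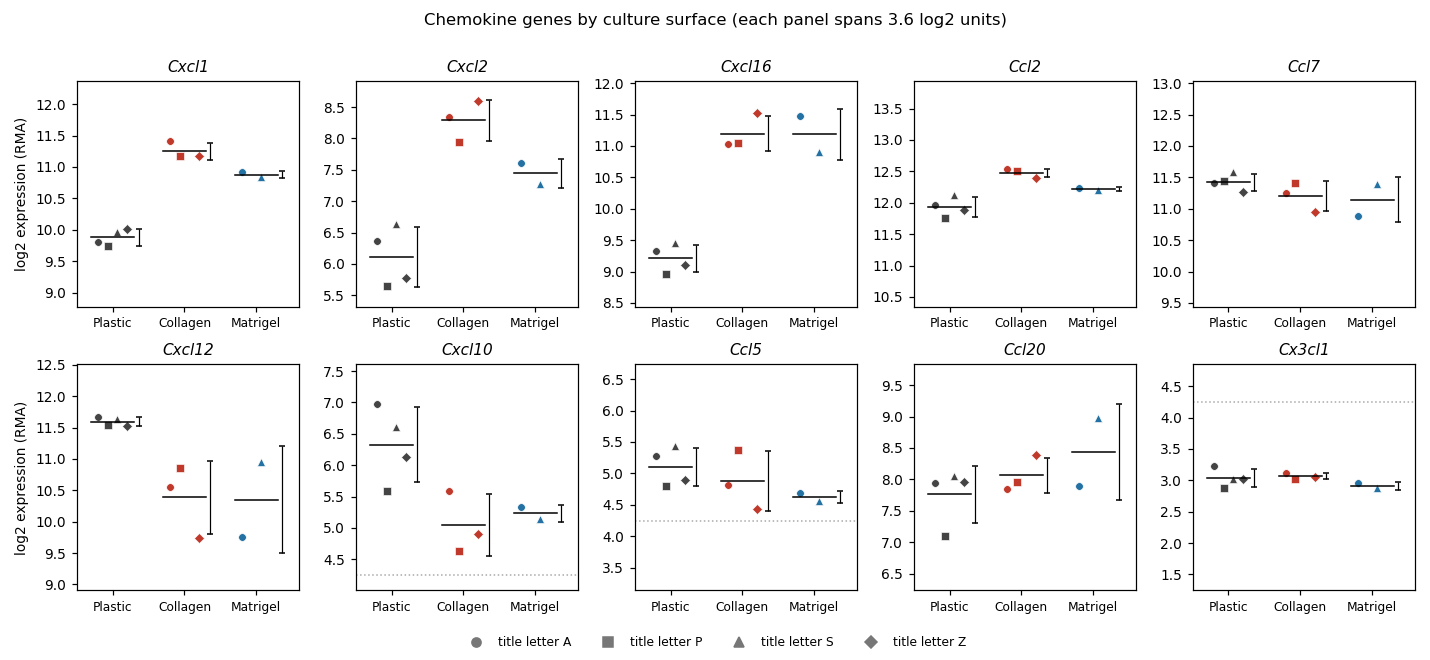
Log2 expression of each chemokine gene on each array, by surface; points are arrays, symbols the title letters, horizontal lines group means and bars 1 SD (n = 4 Plastic, 3 Collagen, 2 Matrigel), and a dotted line is the dim level where it falls in a panel. Cxcl1, Cxcl2 and Cxcl16 lie higher on every coated array than on any plastic array, and Cxcl12 lies lower on every coated array.

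Cxcl1 (Entrez gene 81503) encodes an attractant of neutrophils that acts through Cxcr2. It read 9.80, 9.74, 9.96 and 10.02 on Plastic (letters A, P, S and Z), 11.41, 11.17 and 11.17 on Collagen (A, P and Z), and 10.92 and 10.84 on Matrigel (A and S). The 3 groups did not overlap, with Plastic lowest and Collagen highest. Cxcl1 rose by 1.37 ± 0.09 (log2, SE) on Collagen, 2.58-fold (limma adjusted p = 0.000197), and by 0.997 ± 0.11 on Matrigel (adjusted p = 0.00122). Within the shared letters it was higher by 1.60, 1.43 and 1.15 on Collagen and by 1.11 and 0.88 on Matrigel. The step from Collagen to Matrigel, -0.37 (95% interval -0.63 to -0.11), did not pass (adjusted p = 0.137).

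Cxcl2 (Entrez gene 114105), the protein-coding neighbour of Cxcl1 on chromosome 14, encodes a second neutrophil attractant. It read 6.37, 5.65, 6.64 and 5.77 on Plastic, 8.34, 7.94 and 8.59 on Collagen, and 7.61 and 7.28 on Matrigel. Every coated array was higher than every plastic array, and both Matrigel arrays lay between the other groups. Cxcl2 rose by 2.18 ± 0.26 on Collagen, 4.54-fold (adjusted p = 0.00199), and by 1.34 ± 0.29 on Matrigel, 2.53-fold (adjusted p = 0.0227). Matrigel lay 0.84 below Collagen (interval -1.55 to -0.14), which did not pass (adjusted p = 0.209). Leaving out 1 Matrigel array, here and for every gene below, leaves a single array that is assumed to vary like the other groups. The Matrigel call was lost without Matrigel replicate 1 (adjusted p = 0.149), Matrigel replicate 2 (0.0649) or Plastic replicate 4 (0.0571), when plastic letters P and Z were dropped (0.0824), when the fit held Matrigel and Plastic alone (0.0554) and when the mean of the macrophage markers entered as a covariate (0.126, at a difference of 0.76 in place of 1.34).

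Cxcl16 (Entrez gene 497942) encodes a chemokine made as a membrane-anchored protein, which attracts cells bearing Cxcr6 once it is shed and also takes up oxidised lipoprotein. It read 9.32, 8.96, 9.45 and 9.11 on Plastic, 11.03, 11.04 and 11.52 on Collagen, and 11.47 and 10.90 on Matrigel. The coated arrays overlapped each other, and all of them lay above the plastic arrays. Cxcl16 rose by 1.98 ± 0.18 on Collagen, 3.96-fold (adjusted p = 0.000615), and by 1.97 ± 0.21 on Matrigel, 3.91-fold (adjusted p = 0.00116). Matrigel and Collagen differed by -0.02, with a 95% interval of -0.51 to 0.48.

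Ccl2 (Entrez gene 24770) encodes the main attractant of monocytes, which acts through Ccr2. It read 11.97, 11.76, 12.12 and 11.88 on Plastic, 12.53, 12.50 and 12.40 on Collagen, and 12.24 and 12.20 on Matrigel. No group overlapped another, and Collagen was highest. Ccl2 rose by 0.54 ± 0.09 on Collagen, 1.46-fold (adjusted p = 0.00851); on Matrigel the difference of 0.29 ± 0.10 was short of the threshold (adjusted p = 0.119). The Matrigel difference of Ccl2 passed in 1 of 21 alternative fits (the 2-fold minimum aside), that without Plastic replicate 3 (0.35, limma adjusted p = 0.0417). Within letters A and S it was 0.28 and 0.08. Ccl7 (Entrez gene 287561), a monocyte attractant whose gene lies next to Ccl2 on chromosome 10, spanned 11.26 to 11.59 on Plastic, 10.95 to 11.41 on Collagen and 10.89 to 11.40 on Matrigel. Its groups overlapped, with differences from Plastic of -0.23 on Collagen (interval -0.57 to 0.12) and -0.29 on Matrigel (interval -0.68 to 0.10). Whether Ccl2 and Ccl7 differed in their response was not tested.

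**Figure D2:**
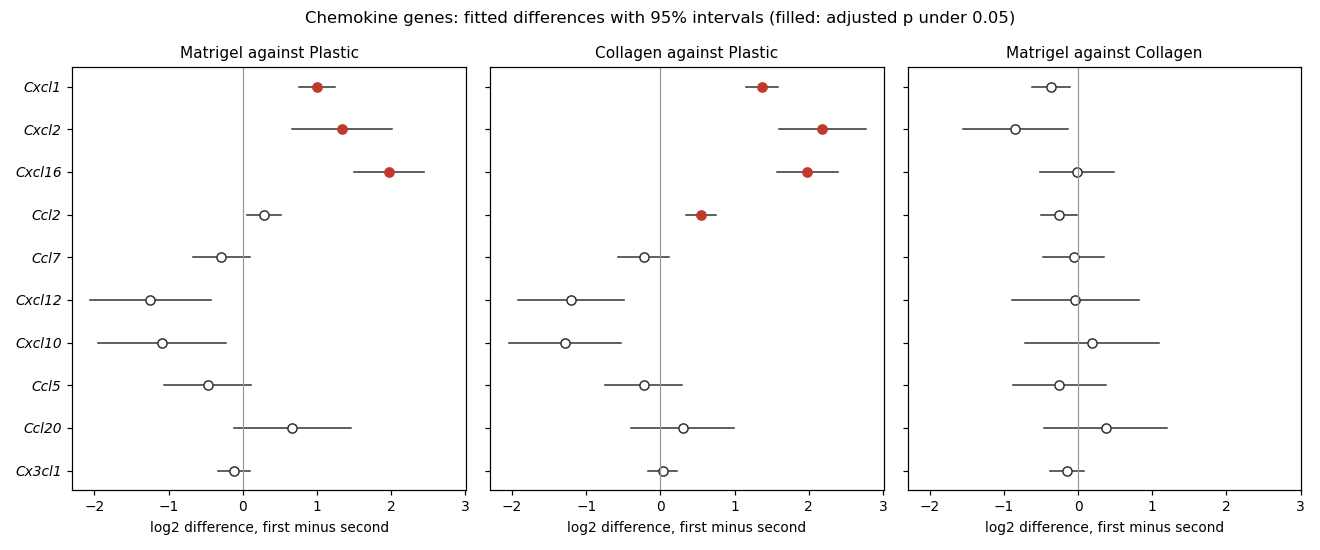
Fitted log2 differences of each chemokine gene in the 3 comparisons, first surface minus second, with unadjusted 95% intervals; filled points passed the adjusted p of 0.05. Cxcl1, Cxcl2 and Cxcl16 are filled and above 0 in both comparisons with Plastic, Ccl2 only in that of Collagen, and no point is filled between Matrigel and Collagen.

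Cxcl12 (Entrez gene 24772), the constitutive stromal chemokine, had lower means on both coatings, which did not pass the threshold. It read 11.67, 11.54, 11.63 and 11.52 on Plastic, 10.56, 10.86 and 9.74 on Collagen, and 9.75 and 10.95 on Matrigel. The plastic arrays spanned a narrow range, the coated arrays a wide one, and no coated array reached the lowest plastic array. The difference was -1.21 ± 0.31 on Collagen (adjusted p = 0.0630) and -1.24 ± 0.36 on Matrigel (adjusted p = 0.0626). Cxcl12 stayed below Plastic in all alternative analyses (the 2-fold minimum aside). On Collagen it passed in 4 of 18 distinct fits, among them that without the Matrigel arrays (0.0279). On Matrigel it passed in 4 of 21, among them without Collagen replicate 3 (0.0359). There 1 array decided its size: without Matrigel replicate 1 it was -0.64 (adjusted p = 0.381), and without Matrigel replicate 2 it was -1.85 (adjusted p = 0.0224), each with a lone Matrigel array whose spread is taken from the other groups.

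Cxcl10 (Entrez gene 245920) is induced by interferons and attracts T cells through Cxcr3. It read 6.97, 5.59, 6.61 and 6.13 on Plastic, 5.59, 4.64 and 4.91 on Collagen, and 5.33 and 5.14 on Matrigel. Plastic letter A was highest, and the lowest plastic array met the highest collagen array. The difference was -1.28 ± 0.33 on Collagen (adjusted p = 0.0621) and -1.09 ± 0.38 on Matrigel (adjusted p = 0.115). With the letter as a fixed replicate block Cxcl10 passed on Collagen, at -1.18 (adjusted p = 0.00261). It also passed on Collagen without Collagen replicate 1 (0.0496) or Plastic replicate 2 (0.0260), and on Matrigel without Plastic replicate 2 (0.0459). Within letters A, P and Z it was lower on Collagen by -1.38, -0.95 and -1.22, and within A and S lower on Matrigel by -1.64 and -1.47. Its chromosomal neighbours Cxcl9 and Cxcl11, also interferon-induced, were dim on all 3 surfaces.

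In the fit of all 9 arrays the other 3 genes, like Ccl7, Cxcl12 and Cxcl10, did not pass in any comparison. Ccl5 (Entrez gene 81780), an attractant of T cells and monocytes, lay close to the dim level, at 4.80 to 5.43 on Plastic, 4.44 to 5.38 on Collagen and 4.56 to 4.69 on Matrigel. Ccl20 (Entrez gene 29538), the ligand of Ccr6, spanned 7.09 to 8.05 on Plastic, 7.85 to 8.38 on Collagen and 7.89 to 8.97 on Matrigel, and its largest difference, 0.67 on Matrigel, had an interval of -0.12 to 1.46. Without Matrigel replicate 2 the Ccl20 difference on Matrigel was 0.13, and without Matrigel replicate 1 it was 1.21. Cx3cl1 (Entrez gene 89808), a membrane-anchored chemokine best known from endothelium and neurons, lay between 2.87 and 3.22 on all 9 arrays, below the dim level, so no fold is given.

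Between Matrigel and Collagen limma called 0 of the 10 chemokine genes, whereas 2.67% of all genes were called, 1.21% higher and 1.45% lower on Matrigel. At an unadjusted p under 0.05 there were 3 (16.9% of all genes), Cxcl1, Cxcl2 and Ccl2, all lower on Matrigel, and the groups did not overlap for 4 of the 10 against 29.5% of all genes. For Cxcl16, Cxcl12 and Cxcl10 the intervals of this difference were -0.51 to 0.48, -0.89 to 0.82 and -0.71 to 1.10 (log2). Cell type markers differed between these surfaces too. Of 23 macrophage markers 0 were called, but 12 had an unadjusted p under 0.05 by limma and 17 did not overlap (median difference 1.165). Of 14 islet markers 2 were called higher on Matrigel (median difference 1.252).

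Among the receptors, 1 gene fell strongly. Ackr3 (Entrez gene 84348) encodes an atypical receptor that binds Cxcl12 and removes it without classical signalling. It read 11.16, 11.05, 11.29 and 10.92 on Plastic, 9.41, 9.39 and 8.62 on Collagen, and 8.16 and 8.13 on Matrigel. The 3 groups did not overlap, with Plastic highest and Matrigel lowest. Ackr3 fell by 2.96 ± 0.21 on Matrigel, 7.79-fold (adjusted p = 0.000264), and by 1.97 ± 0.19 on Collagen, 3.91-fold (adjusted p = 0.000720); the step between the coatings, -0.996, did not pass (adjusted p = 0.0586). Within letters A and S it was lower on Matrigel by -3.01 and -3.16, and within A, P and Z lower on Collagen by -1.75, -1.67 and -2.30. Cxcr4, the signalling receptor of Cxcl12, read 5.77, 4.60, 5.77 and 4.86 on Plastic, 5.77, 5.26 and 6.85 on Collagen and 6.91 and 6.59 on Matrigel. Its difference of 1.50 on Matrigel did not pass (adjusted p = 0.0850).

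Of 19 measured chemokine receptors 1 rose and 1 fell on Matrigel, and 0 rose and 1 fell on Collagen. Called among all genes were 10.4% on Matrigel and 6.12% on Collagen. At an unadjusted p under 0.05 by limma there were 3 and 2 receptors, against 24.1% and 19.0% of all genes. Ccr1, a receptor of CC chemokines on myeloid cells, was the one that rose; it was dim on Plastic, and its mean of 4.29 on Matrigel stands just above the dim level. That call was lost without Matrigel replicate 1 or 2 (adjusted p = 0.0654 and 0.0582) and with the macrophage covariate (0.0918). The receptors of the other chemokines described here, Ccr2, Ccr6, Cxcr2, Cxcr3, Cxcr6 and Cx3cr1, had means below the dim level on every surface.

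Of 25 other chemokine ligands 1 rose on Matrigel and 1 on Collagen, and none fell. Of all genes, 4.52% were called higher on Matrigel and 2.95% on Collagen. Pf4, a platelet and macrophage chemokine, read 10.08 and 10.50 on Matrigel against 8.02 to 9.07 on Plastic, a rise of 1.78 ± 0.36 (adjusted p = 0.0170). Ccl22, a macrophage and dendritic cell chemokine, averaged 5.80 ± 1.27 (SD, n = 3) on Collagen and was dim on Plastic, at least 2.94-fold higher (adjusted p = 0.0418); collagen array P alone read 7.24. The Pf4 call was lost without either Matrigel array (differences of 1.99 and 1.56). With the macrophage covariate the Pf4 difference was 0.92 and still passed (limma adjusted p = 0.00607). The Ccl22 call was lost in 7 of the 9 fits that leave out 1 array (adjusted p from 0.0644 to 0.121), and without Collagen replicate 2 the fitted difference was 1.43 in place of 2.14. Cxcl6, a neutrophil attractant like Cxcl1 and Cxcl2, differed by 0.73 on Collagen and 0.37 on Matrigel and did not pass (adjusted p = 0.123 and 0.473).

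Genes of the NF-kappaB pathway and its cytokine inputs were measured beside the chemokines. Of 24, 4 rose and 1 fell on Matrigel, and 5 rose and 2 fell on Collagen, with medians of 0.05 and 0.04. Among all genes 10.4% were called on Matrigel and 6.12% on Collagen, in either direction. Between Matrigel and Collagen 2 fell on Matrigel, Nfkbiz and Il1a, beside 1.45% of all genes. Nfkbiz, an NF-kappaB cofactor that is itself induced by the pathway, read 7.50, 7.56, 7.56 and 7.79 on Plastic, 9.55, 9.70 and 9.65 on Collagen, and 8.55 and 8.92 on Matrigel. The groups were separate and in the order seen for Cxcl1 and Cxcl2. Nfkbiz rose by 2.03 ± 0.11 on Collagen (adjusted p = 4.8e-05) and by 1.14 ± 0.12 on Matrigel (adjusted p = 0.00122), and between Matrigel and Collagen it differed by -0.89 ± 0.13 (adjusted p = 0.0145). That last call was lost without Collagen replicate 2 (limma adjusted p = 0.0590) or Matrigel replicate 1 (at a difference of -0.71). It was also lost with the letter as a fixed replicate block (0.0659) and with the macrophage covariate (0.153).

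Nfkbia, the inhibitor that NF-kappaB induces to shut itself off, rose by 1.50 ± 0.21 on Collagen (adjusted p = 0.00408) and by 1.22 ± 0.24 on Matrigel (adjusted p = 0.0141), the latter lost without either Matrigel array (0.0818 and 0.0722) and with the macrophage covariate (0.121). Il1a, a cytokine that activates the pathway, read 8.14, 8.38 and 9.28 on Collagen, 6.74 and 6.78 on Matrigel and 6.23 to 7.27 on Plastic. It rose by 1.86 ± 0.32 on Collagen (adjusted p = 0.0104), while on Matrigel it differed by 0.02 (interval -0.80 to 0.84). The Il1a difference between Matrigel and Collagen was -1.84 (limma adjusted p = 0.0448), a call lost without any 1 array other than Plastic replicate 3. Without a collagen or plastic array the adjusted p of the lost calls ran from 0.0538 to 0.109. With the letter as a fixed replicate block this Il1a difference was -2.105 and did not pass (limma adjusted p = 0.108). With the macrophage covariate it was -2.87 and passed (0.00317). Il1b and Tnf did not pass on either coating. Stat2, a carrier of the interferon signal, fell by 1.12 ± 0.28 on Matrigel (adjusted p = 0.0409). The Stat2 call was lost without Matrigel replicate 1 (adjusted p = 0.263), Plastic replicate 1, 3 or 4 (0.0793 to 0.0961) or Collagen replicate 2 or 3 (0.0558 to 0.0626), and with the macrophage covariate (0.0806).

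Nfkb2, a subunit of the pathway, rose by 0.77 ± 0.10 on Matrigel (adjusted p = 0.00301) and by 0.52 ± 0.09 on Collagen (adjusted p = 0.0122), the latter lost without Collagen replicate 2 or 3 (0.0572 and 0.0524). The subunit Nfkb1 rose by 0.35 on Collagen (adjusted p = 0.0374), while the receptor Tnfrsf1a and the adaptor Myd88 differed by -0.46 and -0.32 there (adjusted p = 0.0125 and 0.0351). The Nfkb1 call was lost without Collagen replicate 1 or 2 or any plastic array (0.0726 to 0.137), that of Myd88 without any collagen array or Plastic replicate 1 or 2 (0.0827 to 0.109), and that of Tnfrsf1a without Collagen replicate 3 (0.0511). With the letter as a fixed replicate block Nfkb1 and Myd88 did not pass on Collagen (adjusted p = 0.0618 and 0.0604), and with the macrophage covariate Myd88 did not (0.0576). Irf3, an interferon regulatory factor, rose by 0.36 on Matrigel (limma adjusted p = 0.0337). Its call was lost without either Matrigel array, and without Collagen replicate 1 or 2 or Plastic replicate 1 or 2 (0.0531 to 0.0798). It was also lost with the letter as a fixed replicate block (0.0659) and with the macrophage covariate (0.181).

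**Figure D3:**
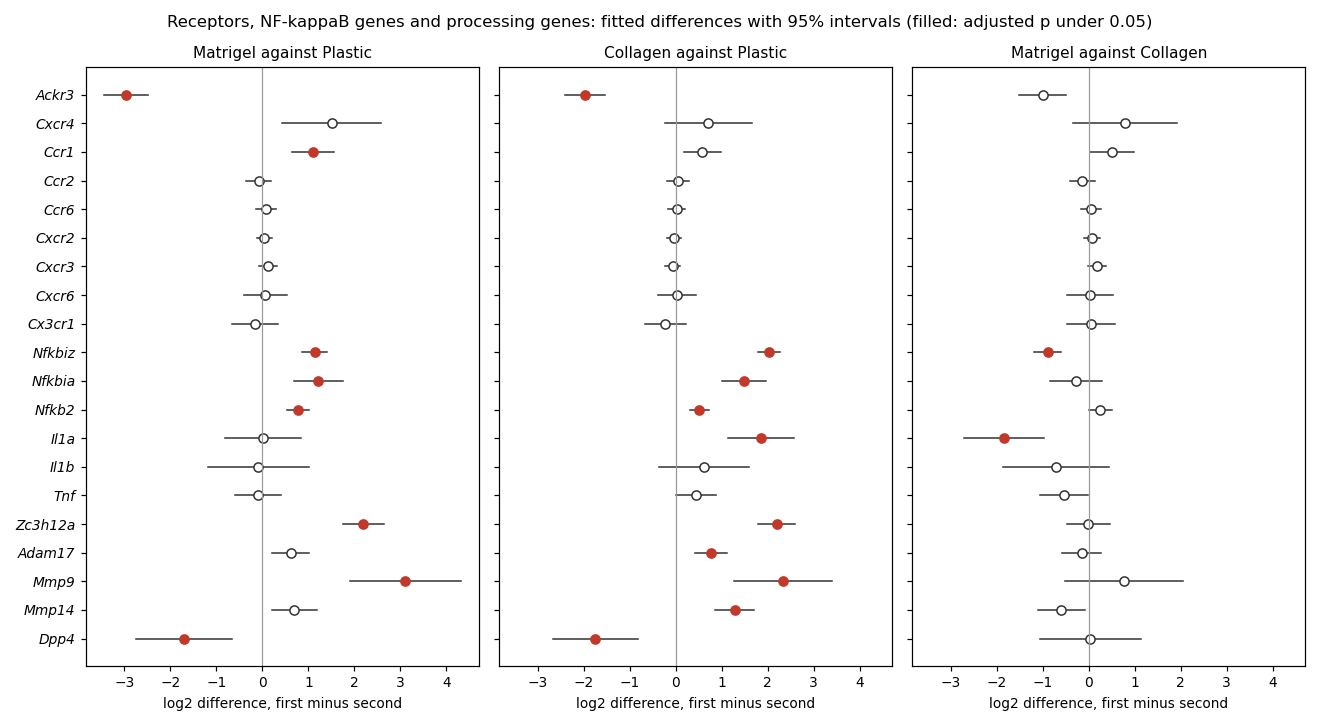
Fitted log2 differences, first surface minus second, of chemokine receptor, NF-kappaB and chemokine processing genes with unadjusted 95% intervals; filled points passed the adjusted p of 0.05. Ackr3 lies furthest below 0 in both comparisons with Plastic, and Zc3h12a, Nfkbiz and Nfkbia lie above 0 in both.

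Of 9 genes that cut chemokines or break down their messenger RNA, 3 rose and 1 fell on Matrigel, and 5 rose and 1 fell on Collagen. The shares of all genes called were 10.4% on Matrigel and 6.12% on Collagen. Zc3h12a, which encodes an RNase that degrades inflammatory messenger RNAs, read 6.25 to 6.70 on Plastic, 8.62 to 8.67 on Collagen, and 9.02 and 8.26 on Matrigel. All coated arrays lay above the plastic arrays, and it rose by 2.20 ± 0.17 on Collagen (adjusted p = 0.000330) and by 2.19 ± 0.20 on Matrigel (adjusted p = 0.000622). Adam17, a sheddase of membrane-anchored proteins, rose by 0.77 ± 0.15 on Collagen (adjusted p = 0.0217), and the metalloproteinase Mmp14 by 1.29 ± 0.19 (adjusted p = 0.00510). Mmp9, which trims several CXC chemokines, rose by 3.11 ± 0.53 on Matrigel (adjusted p = 0.00825) and by 2.34 ± 0.47 on Collagen (adjusted p = 0.0211). Dpp4, a peptidase that clips and inactivates Cxcl12 and Cxcl10, averaged 4.49 ± 0.87 (SD, n = 4) on Plastic and was dim on both coatings, at least 1.19-fold lower (adjusted p = 0.0400 on Collagen and 0.0492 on Matrigel). Zfp36l1, which encodes a protein that destabilises messenger RNA, rose by 0.76 on Matrigel (adjusted p = 0.00268) and by 0.36 on Collagen (adjusted p = 0.0497), the latter lost without any 1 array other than Plastic replicate 3 (0.0712 to 0.147). Single arrays decided several of these calls: Adam17 was lost without Collagen replicate 1 or 3 and without the plastic arrays of replicates 2 and 3 in turn (adjusted p from 0.0527 to 0.0838), and Mmp9 without Matrigel replicate 1 on Matrigel (0.0773) and without Collagen replicate 2 or Plastic replicate 1, 2 or 4 on Collagen (0.0578 to 0.0668). Dpp4 was lost on Collagen without any 1 of the arrays other than Plastic replicates 3 and 4 (0.0562 to 0.131), and on Matrigel likewise. On Matrigel the adjusted p without a collagen or plastic array ran from 0.0637 to 0.109 where the call was lost. With the letter as a fixed replicate block Dpp4 did not pass on Collagen (0.0617), and with the macrophage covariate it passed on Matrigel (0.0145).

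Macrophages also make chemokines, and their markers varied between arrays. The summed macrophage marker level, as log2 of the summed linear values, ran from 11.68 to 13.02 on Plastic, 11.69 to 12.65 on Collagen and 13.02 to 13.45 on Matrigel. Of 23 markers, 2 rose on Matrigel, Itgam and Laptm5 (1.98 and 1.62, limma adjusted p = 0.0342 and 0.0200), and 0 fell. Of all genes, 4.52% were called higher on Matrigel and 5.85% lower. The same shares apply to the islet and acinar counts below. Both calls were lost without either Matrigel array, at differences of 2.17 and 1.8 for Itgam and 1.49 and 1.76 for Laptm5. They were also lost without Plastic replicate 2 (limma adjusted p = 0.0715 and 0.0508), and that of Itgam without Plastic replicate 1 or 4 or Collagen replicate 1 (0.0516 to 0.0852). With the letter as a fixed replicate block neither passed (0.0520 and 0.0831). With the macrophage covariate Laptm5 did not pass (0.113), but that mean contains Laptm5 and Itgam, so this fit cannot judge their calls. On Collagen 0 passed. At an unadjusted p under 0.05 by limma there were 11 of the 23 on Matrigel and 2 on Collagen, against 24.1% and 19.0% of all genes. The median difference over the 23 markers was 0.995 on Matrigel and -0.17 on Collagen. Single markers did not overlap with Plastic for 13 on Matrigel and 2 on Collagen, against 30.2% and 17.2% of all genes. The Collagen and Plastic ranges thus overlapped almost wholly, while both Matrigel arrays lay at or above the highest plastic array. The Matrigel arrays, of letters A and S, read 13.02 and 13.45, where plastic A and S read 12.70 and 13.02. Plastic P and Z read 11.68 and 11.79, so letter and surface are mixed here. With only plastic A and S, the Itgam, Laptm5, Pf4 and Ccr1 calls on Matrigel were lost (limma adjusted p from 0.0811 to 0.173). Those of Mmp9, Nfkbia, Irf3, Stat2, Col3a1 and Cpa1 were lost too (0.0509 to 0.133). With the mean of the macrophage markers in the model Cxcl1 differed by 1.36 on Collagen and 1.02 on Matrigel (adjusted p = 0.000479 and 0.0120), and Cxcl16 by 2.06 and 1.65 (adjusted p = 0.000479 and 0.00959). Cxcl2 differed by 2.32 on Collagen (adjusted p = 0.000427), and on Matrigel its call was lost (0.126). Islet markers moved with Matrigel as well, with 8 of 14 higher and none lower. Their summed level was 12.39 and 13.50 there, 10.20 to 11.91 on Plastic and 11.02 to 12.12 on Collagen. Unlike the calls of the other lists, these islet calls were not followed through the alternative fits. Of 16 acinar markers 2 rose on Matrigel, the digestive enzymes Ctrb1 and Cpa1 (adjusted p = 0.00435 and 0.0108). Ctrb1 read 8.13 to 10.42 there and 5.02 to 5.75 on Plastic, and Cpa1, dim on Plastic and Collagen, was at least 3.09-fold higher (its fitted difference without Matrigel replicate 1 was 1.65). The summed acinar level was 10.77 and 8.95 on Matrigel, 7.63 to 7.87 on Plastic and 7.68 to 8.12 on Collagen. The summed mesothelial level was 8.53 to 8.89 on Plastic, 7.76 to 7.97 on Collagen and 7.83 to 8.05 on Matrigel, and Wt1, a mesothelial transcription factor, fell on both coatings (-1.02 on Collagen and -1.06 on Matrigel, adjusted p = 0.00490 and 0.00602). The part of islet, acinar and mesothelial cells in these results was not tested.

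**Figure D4:**
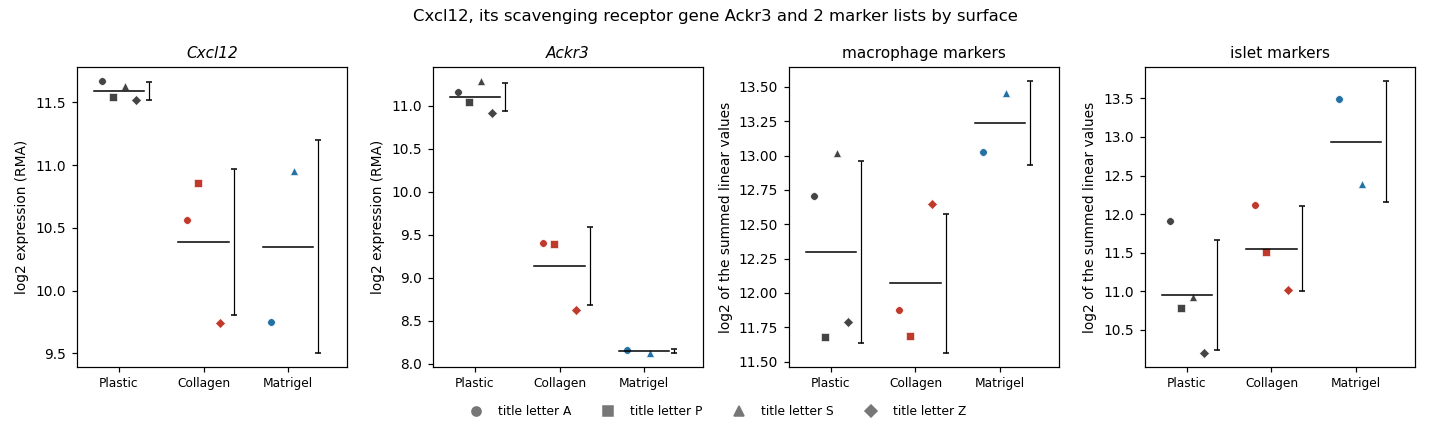
Log2 expression of Cxcl12 and Ackr3 and the summed level of the macrophage and islet marker lists on each array, by surface, with group means (lines), 1 SD (bars) and title letters (symbols). Ackr3 separates the 3 surfaces, Cxcl12 is spread on the coated arrays, and the macrophage level is highest on Matrigel, while its Collagen and Plastic ranges overlap.

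The genes whose pattern over the 9 arrays was most like that of Cxcl1 were found by the root mean square distance after each gene's own mean was subtracted, among genes above the dim level. For Cxcl1 they were Antxr1 (distance 0.13 on the log2 scale), Gcnt2 (0.17), Trps1 (0.17), Igsf3 (0.18) and Ptges (0.18), against a median of 0.66 for all such genes. Antxr1 averaged 8.89 on Plastic, 10.24 on Collagen and 9.81 on Matrigel, the same order as Cxcl1. For Cxcl12 they were Srpx (0.18), Plpp1 (0.24), Lims2 (0.25), Mansc1 (0.25) and Dhrs3 (0.26), against a median of 0.73. Srpx averaged 10.07 on Plastic, 8.82 on Collagen and 9.08 on Matrigel.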

How the data were processed

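The deposited values are log2 expression, summarised by RMA according to the submitters' processing notes; the sources used here give no software version or genome build. They were not normalized again. Of 29215 entries, 15310 had 1 gene symbol in the platform annotation, 323 several and 13582 none; taking the brightest entry per gene left 14506 genes. A linear model with a mean for each surface was fitted to the 9 arrays in limma 3.58.1 (R 4.3.3), with Benjamini-Hochberg adjustment over all genes, and was tested on simulated data. Members and gene lists were chosen with earlier results of these data known. Named were all members, their receptors, up to 6 called genes per list and comparison and the 5 nearest patterns of Cxcl1 and Cxcl12. Where 1 group mean was below log2 4.25, the fold is a lower bound, with the arrays of the dim group raised to that level and the mean of the brighter group as measured. Deviations from group means correlated at 0.196, 0.234 and 0.269 between same-letter collagen and plastic arrays (A, P and Z). Between same-letter Matrigel and plastic arrays (A and S) they correlated at -0.131 and 0.406, which differ in sign. The letter was still used for all 9 arrays in the block fits, and for both coatings in the differences within letters. Some pairs of different letters correlated as much (collagen A with plastic S at 0.243, Matrigel A with plastic P at 0.311). Pairing by letter thus rests on a weak hint for collagen and plastic, and was not established for Matrigel. A fit that leaves out 1 Matrigel array takes the spread of the lone array from the other groups. The p-values measure the spread between these samples, which may be technical, and the number of arrays limits precision. Alternatives were other scalings, filters, entries, moderation, weights, the letter as a block, a 2-fold minimum, fewer arrays, a macrophage covariate and leaving out each array.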

Additional observations from a re-analysis of the deposited data

Results flagged for a closer look

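Ccl20 on Plastic replicate 2 (letter P) read 7.09, far below the other plastic arrays at 7.94 to 8.05; its gap to the nearest was 0.876 of the group's range, above Dixon's 95% critical value of 0.829 for 4 samples. It was 1 of 29 genes examined on Plastic, and chance flags about 1 in 20 groups.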

How the results depend on the processing

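Cxcl1 and Cxcl16 on both coatings, and Cxcl2 and Ccl2 on Collagen, passed in all alternatives other than the 2-fold minimum, which were 21 fits for Matrigel and 18 distinct fits for Collagen (leaving out either Matrigel array equals fitting Collagen and Plastic alone, and using plastic arrays of shared letters equals leaving out Plastic replicate 3); Cxcl2 on Matrigel passed in 15 of 21. Under a required difference of 2-fold, 0 of the 10 chemokine genes passed in any comparison (1, 3 and 0 at an unadjusted p under 0.05), and 47 genes in all were called between Matrigel and Plastic, 31 between Collagen and Plastic and 0 between Matrigel and Collagen (50 unadjusted). Leaving out each array in turn gave 2 to 4 called chemokine genes on Matrigel, 4 to 5 on Collagen and 0 between the coatings, and 759 to 1461, 552 to 870 and 68 to 352 called genes of all, against 1504, 888 and 387. Between Matrigel and Plastic, 628 genes were called with only plastic arrays of shared letters and 612 with the macrophage covariate. Between Matrigel and Collagen, 16 were called with that covariate, 257 with array weights, 66 with the letter as a fixed replicate block and 0 with only those groups in the fit (2094 unadjusted). The fixed replicate block changed the Cxcl10 call on both coatings (on Matrigel -1.51, limma adjusted p = 0.00267). The random block changed the Cxcl10 call on Collagen but not on Matrigel. It also changed the Cxcl12 calls (limma adjusted p = 0.0451 on Matrigel and 0.0489 on Collagen). No other call of the 10 changed with either block, and pairing by letter was not established for Matrigel. Between Matrigel and Collagen small differences changed sign: Cxcl12 to 0.0248 and Cxcl16 to 0.0657 with quantile normalization again, Cxcl16 to 0.0363 with array weights, Cxcl10 to -0.33 with the fixed block, and Ccl20, Cxcl10 and Cxcl12 to -0.34, -0.28 and 0.14 with the covariate. Leaving out 1 array, these differences ran from -0.64 to 0.56 for Cxcl12, -0.32 to 0.20 for Ccl7, -0.47 to 0.00339 for Ccl5, -0.0107 to 0.46 for Cxcl10, -0.30 to 0.27 for Cxcl16 and -0.17 to 0.91 for Ccl20, and that of Cx3cl1, dim on all arrays and so without a readable direction, between Collagen and Plastic from -0.0239 to 0.0934. The cause of these changes was not tested. Values near or below log2 4.25, as for Cx3cl1 and Ccl5, limit what can be seen.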

Other observations

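Within the plastic group the arrays of letters A and S stood apart from those of P and Z in several chemokines of myeloid cells. This was chosen after the values were seen, and no test was made. Cxcl13, a B cell attractant, read 8.10 and 9.28 on the plastic arrays of A and S against 6.86 and 6.63 on those of P and Z. Ccl3, a macrophage chemokine, read 9.01 and 9.46 against 8.26 and 8.07, and Ccl4, its close relative, 8.47 and 8.66 against 7.18 and 7.55. Of the 10 chemokine genes, Cxcl2 read 6.37 and 6.64 against 5.65 and 5.77, and Cxcl10 read 6.97 and 6.61 against 5.59 and 6.13. The macrophage marker level, as log2 of the summed linear values, was 12.70 and 13.02 on A and S and 11.68 and 11.79 on P and Z. Cxcl1, by contrast, read 9.80 and 9.96 against 9.74 and 10.02, with no such split.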
